A study of Mus musculus with 6 samples.

Results

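BIO and CHIR99021, small molecules that inhibit the kinase GSK3, were set as a pair of treated libraries against the pair of vehicle libraries, DMSO and ddH2O, in small RNA sequencing of J1 mouse embryonic stem cells. These are 4 of the 6 libraries of the series, chosen by their treatment labels alone, and the question was which microRNA arms lay beyond both vehicles in both inhibitor libraries. The cells, a line adapted to gelatin-coated plates, received BIO at 1 µM, CHIR99021 at 3 µM, DMSO at 1 µL or ddH2O at 1 µL for 24 h, all with leukemia inhibitory factor at 1000 U/ml and Knockout Serum Replacement. Each of the 4 treatments has 1 library. The other 2 libraries, retinoic acid (RA) and vitamin C (VC), entered no comparison and are mentioned only for the position of a few levels. The study names DMSO as the control of both inhibitors and ddH2O as the control of vitamin C, so ddH2O is a vehicle library but not the inhibitors' own vehicle. BIO and CHIR99021 are different compounds at different doses, so the spread within the inhibitor pair holds compound, dose, culture and library preparation together. The labels describe the raw data of BIO as lost.

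GSK3 phosphorylates beta-catenin and so marks it for degradation; inhibitors of the kinase stabilise beta-catenin, the effector of canonical Wnt signalling, and are used to hold mouse embryonic stem cells in an undifferentiated state. A microRNA is cut from a hairpin precursor by the nucleases Drosha and Dicer, and either the 5p or the 3p arm of the hairpin can be loaded into an Argonaute protein. The loaded arm finds its target messenger RNAs mainly through the seed, bases 2 to 8 of the arm. In mouse embryonic stem cells the miR-290-295 cluster is the characteristic microRNA family, and the imprinted Dlk1-Dio3 region carries a long array of microRNA hairpins on the maternally expressed strand, beside the noncoding RNAs Meg3, Rian and Mirg.

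The arms on which the results turn are printed with the seed in capitals, as listed by RefSeq for GRCm38.p6. Those of the Dlk1-Dio3 region, all lower in both inhibitor libraries than in both vehicle libraries, come first, and miR-377-5p of that region is followed by miR-672-5p from chromosome X, which has the same seed.
miR-540-3p: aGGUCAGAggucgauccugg
miR-382-3p: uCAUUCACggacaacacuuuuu
miR-382-5p: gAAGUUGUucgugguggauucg
miR-323-3p: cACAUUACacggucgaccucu
miR-434-3p: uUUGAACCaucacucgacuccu
miR-299a-3p: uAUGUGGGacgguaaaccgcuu
miR-329-3p: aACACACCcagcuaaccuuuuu
miR-127-3p: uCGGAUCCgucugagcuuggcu
miR-377-5p: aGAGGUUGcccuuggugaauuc
miR-672-5p: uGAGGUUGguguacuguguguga

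Lower arms outside that region included miR-181a-5p and miR-181b-5p, shown with miR-181d-5p of the same seed, whose libraries overlapped, and 4 arms of the AUUGCAC seed together with miR-9-5p and miR-222-3p.
miR-181a-5p: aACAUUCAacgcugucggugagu
miR-181b-5p: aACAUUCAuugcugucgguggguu
miR-181d-5p: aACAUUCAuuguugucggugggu
miR-25-3p: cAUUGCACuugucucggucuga
miR-92a-3p: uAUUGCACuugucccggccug
miR-92b-3p: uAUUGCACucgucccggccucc
miR-363-3p: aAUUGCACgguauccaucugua
miR-9-5p: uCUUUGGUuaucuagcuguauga
miR-222-3p: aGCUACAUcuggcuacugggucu

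Arms that were higher in both inhibitor libraries are shown with their seeds in the same way, the miR-290-295 and miR-302 arms before the others. For miR-295-3p the seed marked is that of the listed sequence, and its most abundant tag in these libraries had another.
miR-295-5p: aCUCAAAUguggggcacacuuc
miR-295-3p: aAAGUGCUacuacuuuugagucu
miR-293-3p: aGUGCCGCagaguuuguagugu
miR-292a-5p: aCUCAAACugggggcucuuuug
miR-302a-5p: aCUUAAACgugguuguacuugc
miR-365-2-5p: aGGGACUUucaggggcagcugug
miR-211-5p: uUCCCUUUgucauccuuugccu
miR-211-3p: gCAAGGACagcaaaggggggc
miR-32-3p: cAAUUUAGugugugugauauu
miR-150-3p: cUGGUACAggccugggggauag

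The libraries held 22258922 tags in BIO and 23758363 in CHIR99021, against 18870345 in DMSO and 20362550 in ddH2O. Tags matching microRNA arms numbered 2099676 in BIO and 1428530 in CHIR99021, against 2155075 in DMSO and 1748602 in ddH2O, or 9.43% and 6.01% of the inhibitor libraries against 11.4% and 8.59% of the vehicle libraries. Levels are counts of an arm per 1000000 microRNA tags of its library (CPM), so that a level is relative to the other microRNAs. Taking 3 counts as the floor, an arm at 0 could still reach 1.43 CPM in BIO and 2.10 CPM in CHIR99021, against 1.39 CPM in DMSO and 1.72 CPM in ddH2O. The 455 arms with a mean of at least 10 CPM over the 4 libraries were compared. The miR-290-295 cluster, the marker of these stem cells, made up 307620 and 342470 CPM in BIO and CHIR99021, against 291810 and 272760 CPM in DMSO and ddH2O. Marker arms of other cell types summed to far less: the muscle and heart list to 1441 and 1070 CPM in BIO and CHIR99021 against 1600 and 3360 CPM in DMSO and ddH2O, and the blood cell list to 315 and 351 CPM in BIO and CHIR99021 against 310 and 295 CPM in DMSO and ddH2O. The neural list reached 12254 and 10876 CPM in BIO and CHIR99021, against 11271 and 14136 CPM in DMSO and ddH2O, mostly from miR-128-3p.

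Across all compared arms, 158 lay lower in both inhibitor libraries than in both vehicle libraries and 54 lay higher, while the groups overlapped for 243. The background shares are therefore 34.7% below and 11.9% above at any distance. With the added condition that the 95% interval of the nearest inhibitor and vehicle pair excluded a ratio of 1, 72 arms (15.8%) were below and 18 (3.96%) above; such arms are called separated here. That interval is the exact conditional binomial (Clopper-Pearson) one and covers counting error only; the reads carry no molecular identifiers and so cannot be taken as independent molecules. Distances were mostly small: the nearest pair was at least 1.5-fold apart for 22 arms below and 6 above, and at least 2-fold apart for 3 below and 2 above. Those 2 above were the arms of miR-211, which passed the minimum level only through the inhibitor libraries. They are also among the separated arms above. The median log2 difference of all 455 arms between the group means was -0.19, so the comparison is tilted toward lower arms on this scale.

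No arm was called at an adjusted p of 0.05 by edgeR's quasi-likelihood test with Benjamini-Hochberg adjustment over the 455 arms (0% higher, 0% lower), and the lowest adjusted p was 0.203. At an unadjusted p under 0.05 the same edgeR fit counted 56 arms lower (12.3%) and 11 higher (2.42%). DESeq2 called 1 arm higher, miR-211-3p, whose vehicle values lay at or under the 3-count floor, and 0 lower. For a value taken alone, an exact two-sided permutation test of 2 against 2 libraries cannot go below p = 0.333. The counts of arms beyond both vehicles are therefore a description of these 4 libraries. At a minimum of 100 CPM, 240 arms were tested, 50 of them from the Dlk1-Dio3 region. At that level edgeR called 9 arms lower and 0 higher. Of the 9, 4 were Dlk1-Dio3 arms (miR-323-3p, miR-540-3p, miR-382-3p and miR-382-5p). The others were miR-181a-5p, miR-181b-5p, miR-1a-3p, miR-9-5p and the shared arm miR-669a-3p/miR-669o-3p, with adjusted p-values of 0.0343 to 0.0455 over all 9.

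The libraries of a pair were not close to each other. Over the 240 arms at 100 CPM or more, the SD of the log2 ratio was 0.66 for CHIR99021 over BIO and 0.45 for ddH2O over DMSO. Between the groups the SD was 0.40 for BIO over DMSO, 0.50 for BIO over ddH2O, 0.73 for CHIR99021 over DMSO and 0.74 for CHIR99021 over ddH2O. CHIR99021 stood furthest from the other 3 libraries on this measure. Log2 ratios of BIO over DMSO and of CHIR99021 over ddH2O, which share no library, had a Pearson correlation of 0.26 and a Spearman correlation of 0.42 across the 240 arms. With the vehicles exchanged, BIO over ddH2O and CHIR99021 over DMSO, these were 0.11 and 0.21. Arms are not independent replicates, all ratios are scaled to the microRNA tags of their own library, and no p is attached.

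**Figure D1:**
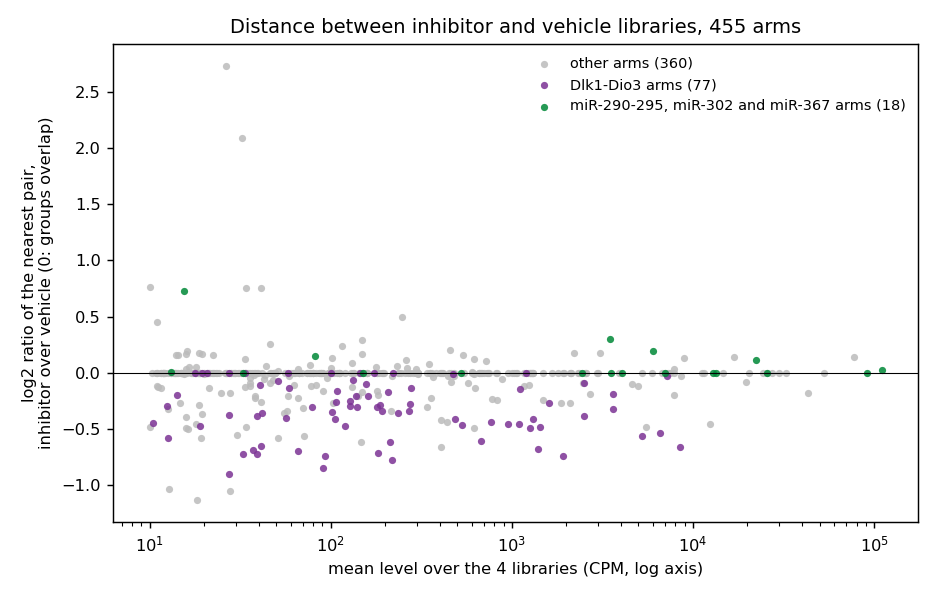
Each point is 1 of the 455 arms, with its mean level over the 4 libraries in CPM on a log axis and, on the vertical axis, the log2 ratio of the nearest inhibitor and vehicle pair (0 where the groups overlap). Most Dlk1-Dio3 arms lie below 0 over the whole range of levels, while the miR-290-295, miR-302 and miR-367 arms lie at or above 0.

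The Dlk1-Dio3 region held 66 of the 158 arms that lay below both vehicles. These were 66 of its 77 compared arms, lower in both inhibitor libraries than in both vehicle libraries (85.7%, against the background of 34.7%), and 0 were higher. Of the 66, 42 were separated (background 15.8%), and 36 of the 77 had an unadjusted edgeR p under 0.05 with a lower level (background 12.3%). The log2 difference was negative for 75 of the 77 arms, with a median of -0.68 beside -0.10 over the 378 arms outside the region. Another 30 arms of the region had tags but stayed under the minimum level. The summed level of the region was 52169 CPM in BIO and 43223 CPM in CHIR99021, against 78967 CPM in DMSO and 72047 CPM in ddH2O. The inhibitor sums did not overlap the vehicle sums, and their mean was 1.58-fold lower; the nearest pair, BIO against ddH2O, lay 1.38-fold apart (interval 1.37 to 1.39). For 64 of the 77 arms both inhibitor libraries were also below RA and VC, whose sums were 106930 and 80609 CPM.

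Of the 240 arms at 100 CPM or more, 50 were from this region, and so were 8 of the 10 with the widest distance downward. MiR-540-3p stood at 153 and 139 CPM in BIO and CHIR99021, against 312 and 263 CPM in DMSO and ddH2O. Its nearest pair was 1.72-fold apart, and the log2 difference was -0.97 ± 0.30 (SE, adjusted p = 0.203, edgeR, lower in 2 of 2 inhibitor libraries). Its partner miR-540-5p, in contrast, had 82.4 and 116 CPM in BIO and CHIR99021, against 112 and 90.4 CPM in DMSO and ddH2O, and the groups overlapped. Both arms of the miR-382 hairpin, in a Mirg intron, were lower. MiR-382-3p had 1136 and 1394 CPM in BIO and CHIR99021, against 2780 and 2332 CPM in DMSO and ddH2O, and miR-382-5p had 3530 and 3982 CPM in the inhibitor libraries, against 7421 and 5900 CPM in the vehicle libraries. Log2 differences were -1.02 ± 0.29 for miR-382-3p and -0.83 ± 0.25 for miR-382-5p (SE, adjusted p = 0.203 for each, edgeR).

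MiR-323-3p was the most abundant separated arm of the region, at 6212 and 5739 CPM in BIO and CHIR99021, against 12070 and 9819 CPM in DMSO and ddH2O. Its log2 difference of -0.87 ± 0.23 had the lowest unadjusted edgeR p of all 455 arms, 0.00139. MiR-433-3p had 7588 and 4799 CPM in BIO and CHIR99021, against 8660 and 7730 CPM in DMSO and ddH2O, so that BIO and ddH2O differed by only 1.02-fold and the arm was not separated. MiR-127-3p, whose hairpin lies antisense to the retrotransposon-derived gene Rtl1, had 5371 and 4379 CPM in BIO and CHIR99021, against 7813 and 8583 CPM in DMSO and ddH2O. All 4 pairings of an inhibitor with a vehicle gave a lower level for miR-127-3p, the nearest by 1.46-fold. The neighbouring hairpins miR-431, miR-433, miR-434 and miR-136 are known to lie on the same antisense transcript, and all 8 of their arms were below both vehicles. The nearest pair among these was closest for miR-433-3p and furthest for miR-136-3p, with 56.7 and 65.1 CPM in BIO and CHIR99021 against 142 and 109 CPM in DMSO and ddH2O.

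Further along the array, miR-299a-3p had 138 and 120 CPM in BIO and CHIR99021, against 227 and 242 CPM in DMSO and ddH2O. MiR-434-3p had 1036 and 999 CPM in BIO and CHIR99021, against 1659 and 1861 CPM in DMSO and ddH2O, while RA and VC reached 4704 and 4118 CPM. MiR-329-3p had 582 and 288 CPM in BIO and CHIR99021, against 889 and 929 CPM in DMSO and ddH2O. The pairs of levels did not overlap for any of these 3 arms, and the inhibitor libraries were close to each other for miR-299a-3p and miR-434-3p but not for miR-329-3p. MiR-134-5p, reported in mouse embryonic stem cells to target Nanog and Sox2 transcripts, had 1099 and 629 CPM in BIO and CHIR99021, against 1461 and 2017 CPM in DMSO and ddH2O. Its nearest pair was 1.33-fold apart.

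The lower level was seen along the whole array on chromosome 12, from miR-770-5p, starting at 109563710 on GRCm38, to miR-3072-3p, starting at 109747928. Of the 23 compared arms annotated inside Mirg, 21 were below both vehicles, and of the 48 without an annotated host 42 were. In Rian 2 of 4 and in Meg3 1 of 2 arms were below. The Rian sum overlapped between the groups, because miR-341-3p, its most abundant arm, had 755 and 1754 CPM in BIO and CHIR99021, against 1456 and 814 CPM in DMSO and ddH2O. These levels count exact matches only, and most miR-341-3p tags ended in untemplated 3' bases, which the hairpin does not hold. Their share was 86.7% and 66.0% in BIO and CHIR99021, against 78.2% and 90.7% in DMSO and ddH2O. The part of this share in the overlap was not tested. Besides miR-341-3p, the arms of the region whose libraries overlapped were miR-770-3p, miR-540-5p, miR-370-5p, miR-323-5p, miR-1193-3p, miR-543-5p, miR-667-5p, miR-667-3p, miR-496a-3p and miR-3072-5p. Of the 30 hairpins of the region with both arms compared, 22 had both arms below both vehicles. Of the 36 compared 5p arms 30 were below (83.3%, beside 29.8% of all 5p arms). Of the 41 compared 3p arms 36 were below (87.8%, beside 40.5% of all 3p arms).

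**Figure D2:**
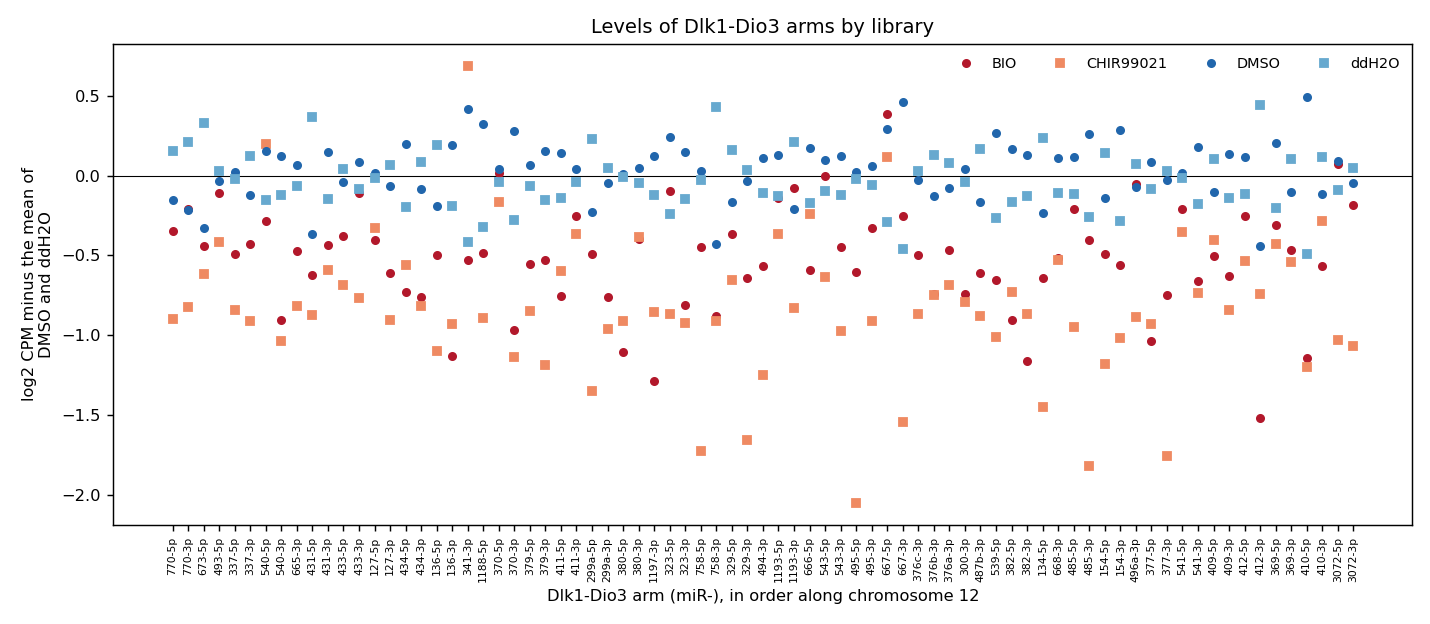
Levels of the 77 Dlk1-Dio3 arms in order along chromosome 12, each library drawn as its log2 CPM minus the mean log2 CPM of DMSO and ddH2O. The points of BIO and CHIR99021 lie under those of DMSO and ddH2O for 66 of the 77 arms, and the CHIR99021 points reach lower than those of BIO at many of them.

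Outside the Dlk1-Dio3 region, 92 of 378 arms were below both vehicles and 54 above. Among the lower ones the miR-181 family split by locus. MiR-181a-5p, known from lymphocyte development, had 338 and 151 CPM in BIO and CHIR99021, against 460 and 806 CPM in DMSO and ddH2O, with a log2 difference of -1.37 ± 0.42 (SE, adjusted p = 0.203, edgeR). MiR-181b-5p had 481 and 242 CPM in BIO and CHIR99021, against 678 and 1068 CPM in DMSO and ddH2O. The partner strand miR-181a-2-3p had 19.5 and 9.80 CPM in BIO and CHIR99021, against 40.8 and 40.6 CPM in DMSO and ddH2O. All 3 were separated. MiR-181d-5p and miR-181c-5p, from hairpins at Nanos3 on chromosome 8 that carry the same ACAUUCA seed, overlapped between the groups: miR-181d-5p had 23840 and 25480 CPM in BIO and CHIR99021, against 20840 and 27430 CPM in DMSO and ddH2O. Because miR-181d-5p was by far the more abundant, the summed level of the seed overlapped too, at 25687 and 27193 CPM in BIO and CHIR99021, against 23189 and 30839 CPM in DMSO and ddH2O.

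The AUUGCAC seed, shared by arms of the miR-17-92, miR-106a-363 and miR-106b-25 clusters and by miR-92b and miR-32, was lower as a whole. Its 5 compared arms summed to 50339 and 53647 CPM in BIO and CHIR99021, against 64592 and 68440 CPM in DMSO and ddH2O. Of the 5 arms, 4 were below both vehicles (background 34.7%). Sums of seed families in these data lay below both vehicles far more often than above, so the direction is a common one. MiR-92a-3p, an arm of the proliferation-linked miR-17-92 cluster, had 9026 and 10780 CPM in BIO and CHIR99021, against 14850 and 14840 CPM in DMSO and ddH2O. The vehicle libraries were nearly equal for miR-92a-3p, and the nearest inhibitor library was 1.38-fold lower. MiR-25-3p, the most abundant arm of the seed, had 38020 and 40480 CPM in BIO and CHIR99021, against 45820 and 49360 CPM in DMSO and ddH2O. Of all 23 compared arms of these 3 clusters, the AUUGCAC arms among them included, 5 were below (background 34.7%), 2 were above (background 11.9%) and 16 overlapped. MiR-363-5p, from the same hairpin as miR-363-3p, was above both vehicles, with 9803 and 9328 CPM in BIO and CHIR99021, against 8529 and 8036 CPM in DMSO and ddH2O.

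Of the muscle list, the GGAAUGU seed of miR-1a-3p and miR-206-3p was lower in both inhibitor libraries. MiR-1a-3p had 1161 and 580 CPM in BIO and CHIR99021, against 1376 and 2818 CPM in DMSO and ddH2O, so its distance rests largely on CHIR99021 and ddH2O, the nearest pair being 1.19-fold apart. MiR-206-3p, at a lower level, had 11.4 and 9.10 CPM in BIO and CHIR99021, against 27.4 and 25.2 CPM in DMSO and ddH2O, and the nearest pair was 2.20-fold apart (interval of the ratio 0.26 to 0.76). The third compared arm of the list, miR-499-5p, overlapped. MiR-9-5p, a neural microRNA, had 99.1 and 84.7 CPM in BIO and CHIR99021, against 152 and 250 CPM in DMSO and ddH2O, and was separated. MiR-124-3p, also neural, lay the other way, with 3310 and 3772 CPM in BIO and CHIR99021 against 2234 and 2939 CPM in DMSO and ddH2O. Of the 10 compared neural arms, 2 were below (background 34.7%), 1 above (background 11.9%) and 7 overlapped. With untemplated 3' ends counted, 2 of the 10 were below and 0 above, so miR-124-3p no longer lay above both vehicles.

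Smaller families had members on the lower side. MiR-222-3p, which is known to target the cell cycle inhibitor p27, had 233 and 372 CPM in BIO and CHIR99021, against 518 and 497 CPM in DMSO and ddH2O, while miR-221-3p of the same seed overlapped. Of the family of miR-34 and miR-449, known for p53-linked and ciliated-cell expression, 5 of 8 arms were below both vehicles (62.5%, background 34.7%) and 0 above, with a median log2 difference of -0.56. The median rests on ddH2O: without that library the median was -0.11, beside -0.10 for all arms, with 4 of 7 arms below and 1 above. Its leading arm miR-34c-5p had 3852 and 3824 CPM in BIO and CHIR99021, against 4132 and 6688 CPM in DMSO and ddH2O. DMSO lay near the inhibitor libraries for miR-34c-5p, and ddH2O stood apart. MiR-672-5p had 4769 and 3707 CPM in BIO and CHIR99021, against 6680 and 6868 CPM in DMSO and ddH2O, and with miR-377-5p, which carries the same seed, it summed to 4828 and 3770 CPM in BIO and CHIR99021, against 6808 and 6981 CPM in DMSO and ddH2O. The list of microRNAs reported to target Wnt pathway genes, which holds the miR-34 arms, had 5 of 10 arms below (background 34.7%), 0 above and a median of -0.47. Without ddH2O its median was -0.06, beside -0.10 for all arms, with 4 of 9 arms below and 2 above.

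Arms of the stem cell clusters were among those above both vehicles. Of the 14 compared miR-290-295 arms, 5 were above and 0 below (background 11.9% above), 13 of the 14 log2 differences were positive, and their median was 0.22 beside -0.19 for all arms. MiR-293-3p, the most abundant 3p arm of the cluster, had 103400 and 135000 CPM in BIO and CHIR99021, against 101100 and 102000 CPM in DMSO and ddH2O, so BIO lay only 1.01-fold above ddH2O. MiR-295-3p had 22070 and 27630 CPM in BIO and CHIR99021, against 19590 and 20370 CPM in DMSO and ddH2O. The widest distance of the cluster belonged to miR-295-5p, with 3762 and 4176 CPM in BIO and CHIR99021 against 3050 and 2934 CPM in DMSO and ddH2O, 1.23-fold for the nearest pair (interval 1.19 to 1.28). No arm of this cluster had an unadjusted edgeR p under 0.05. Scaled to all tags of the library in place of microRNA tags, the direction turned: the median was -0.20, and 0 of the 14 arms were above. Without CHIR99021 the median was 0.09, and without BIO it was 0.40. The miR-290a-5p arm, the most abundant of the 5p arms, overlapped, with 105100 and 88710 CPM in BIO and CHIR99021 against 96000 and 76980 CPM in DMSO and ddH2O.

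The miR-302 and miR-367 cluster, expressed in epiblast and primed pluripotent cells, was present at low levels. Its 9 arms with tags, of which 4 were compared, summed to 254 and 145 CPM in BIO and CHIR99021, against 122 and 95.5 CPM in DMSO and ddH2O. MiR-302a-5p had 150 and 75.6 CPM in BIO and CHIR99021, against 68.2 and 35.5 CPM in DMSO and ddH2O, with a log2 difference of 1.12 ± 0.41 (SE, adjusted p = 0.234, edgeR). Of the 4 compared arms 3 were above both vehicles (background 11.9%), and none was separated, since CHIR99021 and DMSO lay within counting error of each other for miR-302a-5p (1.11-fold, interval 0.86 to 1.43). With all-tag scaling 0 of the 4 were above, and without BIO their median was 0.37, beside 0.74 with all 4 libraries. The list of microRNAs reported under beta-catenin/TCF control, which holds the miR-302 and miR-183, miR-96 and miR-182 arms, had 6 of 13 arms above both vehicles (background 11.9%) and 1 below, with a median of 0.39. That median depended on the setting: it was 0.083 without CHIR99021, 0.087 without DMSO and 0.014 with all-tag scaling, where 0 arms were above and 5 below, and at 100 CPM it was -0.17, with 1 of 6 arms above and 1 below. MiR-182-5p, the leading arm of that list, had 7744 and 9034 CPM in BIO and CHIR99021, against 7562 and 7059 CPM in DMSO and ddH2O.

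**Figure D3:**
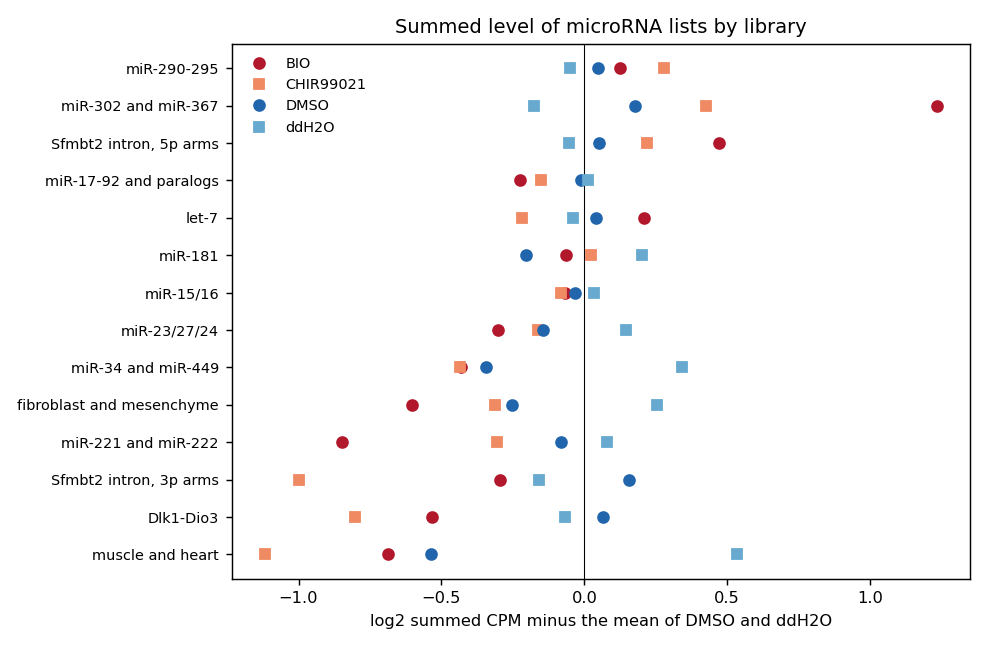
Summed level of 14 microRNA lists in each library, as log2 summed CPM minus the mean of DMSO and ddH2O. The sums of BIO and CHIR99021 for Dlk1-Dio3 lie to the left of those of both vehicles and those for miR-290-295 and for miR-302 and miR-367 to the right on the microRNA tag scale, while the let-7 and miR-181 sums overlap.

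Both arms of miR-211, a hairpin in an intron of the melanocyte cation channel gene Trpm1, passed the minimum level only through the inhibitor libraries, so that a difference is built into their selection. MiR-211-5p had 13.8 and 112 CPM in BIO and CHIR99021, against 3.25 and 0.57 CPM in DMSO and ddH2O. MiR-211-3p had 11.4 and 91.0 CPM in BIO and CHIR99021, against 0.93 and 1.72 CPM in DMSO and ddH2O. The vehicle libraries held at most 7 counts of either arm, at or near the floor of 3 counts, so no ratio is given, and CHIR99021 was well above BIO. Among arms at 100 CPM or more the widest distance upward was that of miR-365-2-5p, with 348 and 289 CPM in BIO and CHIR99021 against 205 and 151 CPM in DMSO and ddH2O, 1.41-fold for the nearest pair. The arms miR-150-3p and miR-32-3p, each the less abundant strand of its hairpin, were also separated: miR-150-3p had 50.0 and 63.7 CPM in BIO and CHIR99021, against 29.7 and 22.3 CPM in DMSO and ddH2O. MiR-140-3p, among the most abundant arms of the data, had 83650 and 84030 CPM in BIO and CHIR99021, against 66820 and 76090 CPM in DMSO and ddH2O.

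**Figure D4:**
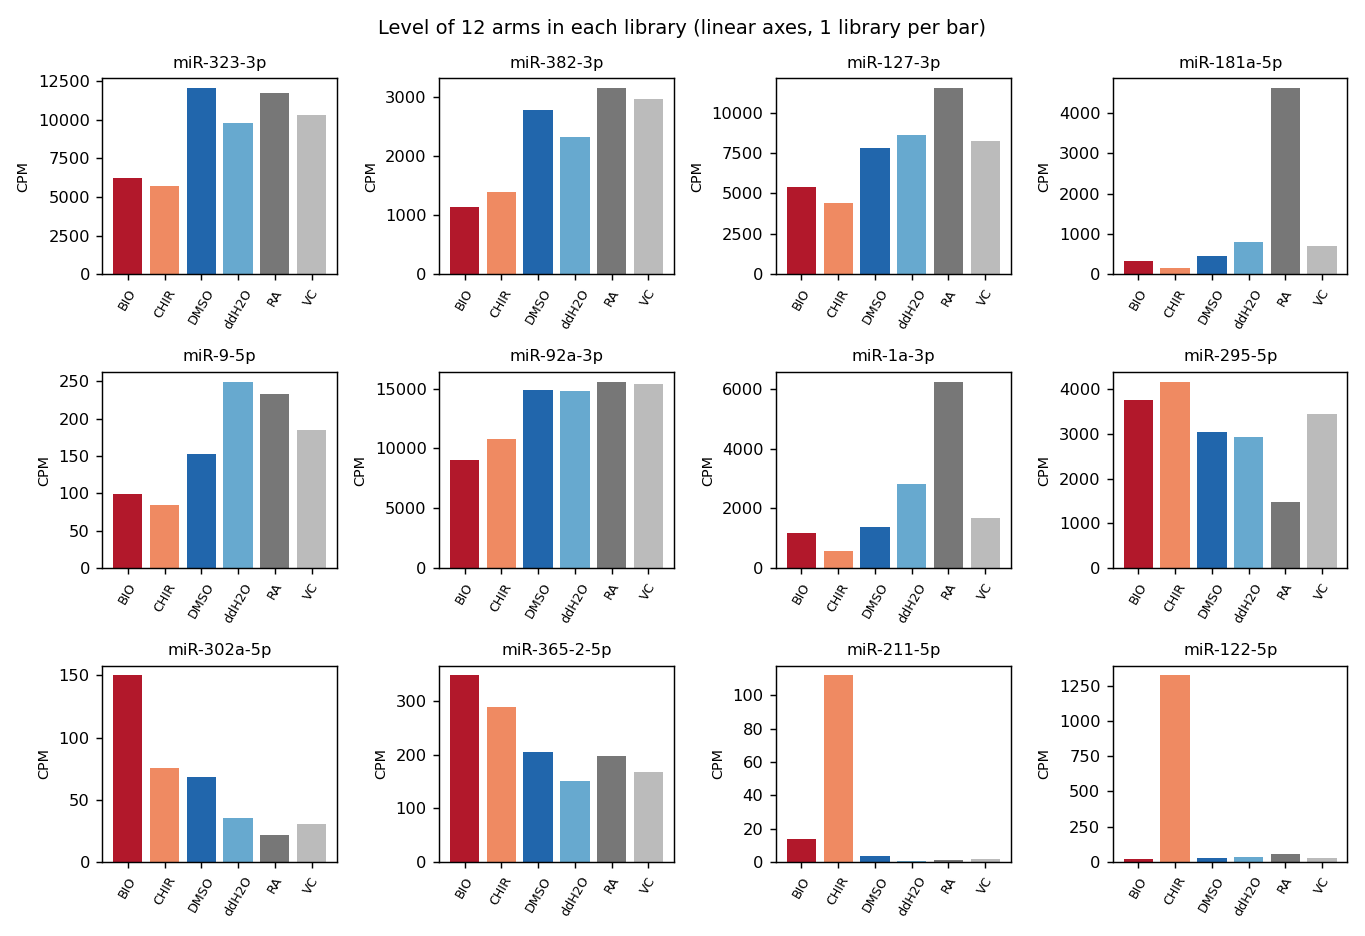
Level of 12 arms in CPM in each of the 6 libraries, with 1 library per bar and a linear axis from 0. The BIO and CHIR99021 bars are both lower than the DMSO and ddH2O bars for miR-323-3p, miR-382-3p, miR-127-3p, miR-181a-5p, miR-9-5p, miR-92a-3p and miR-1a-3p and both higher for miR-295-5p, miR-302a-5p, miR-365-2-5p and miR-211-5p, and for miR-122-5p the CHIR99021 bar alone stands out.

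The hairpins in the rodent-specific cluster inside an Sfmbt2 intron on chromosome 2 were counted by strand. Of 14 compared 5p arms, 5 were above both vehicles (35.7%, beside 13.5% of all 5p arms) and 1 below, with a median log2 difference of 0.20. Of 15 compared 3p arms 0 were above and 7 below (46.7%, near the 40.5% of all 3p arms), with a median of -0.48. With all-tag scaling 0 of the 29 arms were above. All 5p arms of the cluster with tags, compared or not, summed to 21878 and 18363 CPM in BIO and CHIR99021, against 16368 and 15207 CPM in DMSO and ddH2O. All its 3p arms with tags summed to 1657 and 1020 CPM in BIO and CHIR99021, against 2269 and 1826 CPM in DMSO and ddH2O. MiR-669c-5p made up most of the 5p sum, with 20690 and 17230 CPM in BIO and CHIR99021 against 15590 and 14040 CPM in DMSO and ddH2O. The shared arm miR-669a-3p/miR-669o-3p had 322 and 173 CPM in BIO and CHIR99021, against 616 and 511 CPM in DMSO and ddH2O. Many of these arms share tags, which were split evenly, so their levels are not independent. Over all compared arms, 3p arms had a median of -0.31 and 5p arms of -0.12.

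Within a hairpin, the balance of its arms does not depend on how libraries are scaled. Of 113 hairpins with both arms compared, the log2 ratio of 5p over 3p was above both vehicles in both inhibitor libraries for 26 and below for 16. Both arms were below both vehicles for 24 hairpins, 22 of them from the Dlk1-Dio3 region, and above for 4. The arms lay on opposite sides for Mir363 and Mir200b. The widest shift toward 3p was that of Mir150, with a log2 ratio of 5p over 3p of 0.91 and 0.22 in BIO and CHIR99021, against 1.86 and 1.84 in DMSO and ddH2O. For Mir32 the ratio was 1.76 and 1.46 in BIO and CHIR99021, against 2.43 and 2.77 in DMSO and ddH2O. Toward 5p, Mir370 of the Dlk1-Dio3 region had -0.24 and -0.25 in BIO and CHIR99021, against -1.46 and -0.98 in DMSO and ddH2O. Of the 30 Dlk1-Dio3 hairpins, 9 were shifted toward 5p and 4 toward 3p beyond both vehicles, beside 26 and 16 of all 113 hairpins.

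**Figure D5:**
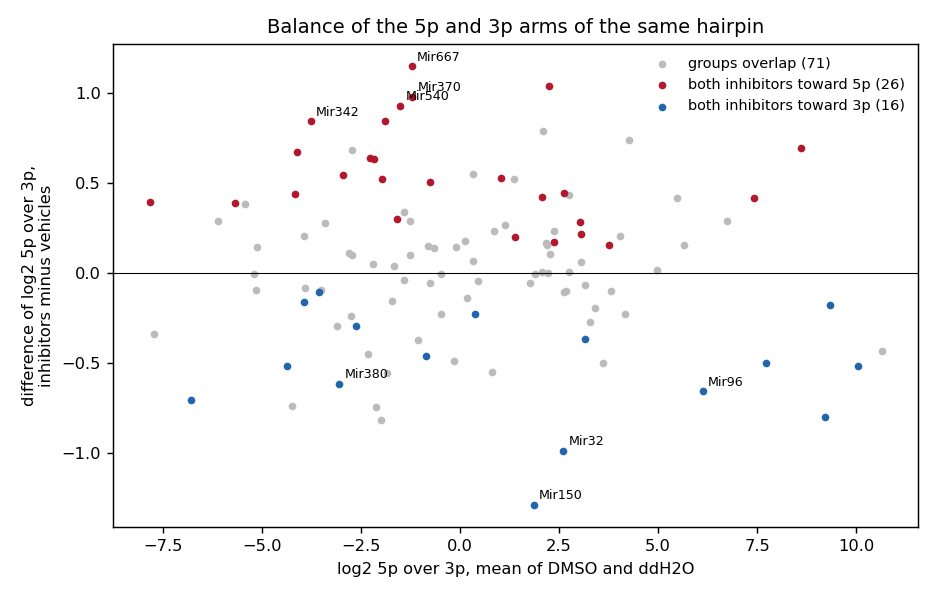
Each point is 1 of 113 hairpins, with the mean log2 ratio of its 5p over its 3p arm in DMSO and ddH2O on the horizontal axis and the difference of that ratio, inhibitors minus vehicles, on the vertical axis. In 26 hairpins both inhibitor libraries are shifted toward 5p and in 16 toward 3p, with Mir150 and Mir32 at the lower end.

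Some large differences between the group means came from 1 library and were not shared by its pair. MiR-122-5p, the liver microRNA, had 22.4 and 1324 CPM in BIO and CHIR99021, against 25.5 and 33.2 CPM in DMSO and ddH2O, so only CHIR99021 was high. MiR-296-3p had 285 and 410 CPM in BIO and CHIR99021, against 1220 and 257 CPM in DMSO and ddH2O, where DMSO stood apart. For the hypoxia-linked miR-210-3p, with 958 and 736 CPM in BIO and CHIR99021 against 895 and 2634 CPM in DMSO and ddH2O, ddH2O stood apart. The let-7 family, which accompanies differentiation, overlapped as a sum, at 97705 and 72611 CPM in BIO and CHIR99021 against 86932 and 82116 CPM in DMSO and ddH2O, and 8 of its 9 compared arms overlapped.

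Library properties other than microRNA levels also differed, and their part in the results was not tested. Tags of 18 and 19 bases made up 8.01% and 15.8% of BIO and CHIR99021, against 10.9% and 10.99% of DMSO and ddH2O, and tags of 27 to 44 bases 20.4% and 10.1% of BIO and CHIR99021 against 11.96% and 16.4% of DMSO and ddH2O. Neither share separated the groups. The scaling of libraries set the split of directions. With TMM factors the median of all arms moved by 0.16 on the log2 scale, with 113 arms below and 90 above both vehicles (44.3% of the non-overlapping arms above, beside 25.5% on the microRNA tag scale), with median-of-ratios factors by 0.18, with 105 below and 102 above (49.3%), and with scaling to all tags by -0.37, with 243 below and 5 above (2.0%). All 54 higher arms stayed above both vehicles under TMM and median-of-ratios factors. That outcome was fixed in advance, since both sets of factors raise both inhibitor libraries and lower both vehicle libraries for every arm. Under all-tag scaling 5 of the 54 stayed above. Of the 158 lower arms, 102 stayed below under all 3 scalings, 55 of them among the 66 from the Dlk1-Dio3 region. On each of these scales the Dlk1-Dio3 median lay below that of all arms, at -0.53 against -0.03 with TMM, -0.52 against -0.01 with median-of-ratios and -1.04 against -0.56 with all tags. A change of scaling shifts the log2 difference of every arm by nearly the same amount. The distance between the medians could therefore hardly change, and its agreement over the scalings is no separate support.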

How the data were processed

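Each library's deposited file gives the authors' raw counts per distinct tag of 18 to 44 bases, which were used as deposited; other deposited columns hold each tag's length and sequence. Per the submitters' processing notes the build is mm9; trimming and alignment are not given in the sources used here. Per the labels' protocols, RNA was isolated with TRIzol and libraries were made with a TruSeq RNA kit from 1 µg. Exact matches of 18- to 26-base tags were sought in 1174 hairpins of GENCODE M21 (GRCm38), leaving out tags that also match rRNA, snoRNA, scaRNA, snRNA, mitochondrial RNA or Gm42418. An arm counts the tags starting within 2 bases of its most abundant tag, and tags shared by arms were split evenly and rounded; 1262 arms had tags in the 6 libraries. RefSeq mature names matched 353 of the 455 compared arms, and the other names follow the hairpin symbol.

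Arm counts were scaled to the microRNA tags of the library. The 455 arms with a mean of 10 CPM over the 4 libraries entered edgeR 4.0.16 (legacy quasi-likelihood fit, robust, no covariates, 2 inhibitor against 2 vehicle libraries); DESeq2 1.42.0 was an alternative. The biological coefficient of variation was 0.264. The SE printed with an edgeR log2 difference is its absolute size divided by the square root of the test's F statistic. The p-values measure the spread between single libraries of different compounds and vehicles. Counting and the edgeR step were tested on simulated data. The edgeR simulation used TMM factors and changes larger than those of most arms here. Simulated tags for counting each matched a single hairpin. The scaling to microRNA tags and the splitting of shared tags were therefore not covered. Lists, members and rules were chosen with earlier results of these data known. Named arms are, at 100 CPM or more, the 10 widest gaps in each direction, any arm called, up to 4 abundant members of each list, the 10 most abundant arms and the 5 largest overlapping differences; other arms in the text (among them miR-136-3p, miR-32-3p, miR-672-5p, miR-181a-2-3p, miR-341-3p and miR-540-5p) were chosen after their values were seen. Alternatives covered scaling, minimum level, shared tags, tags seen once, untemplated ends, the most abundant tag alone, tags of 20 to 25 bases and each library left out.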

Additional observations from a re-analysis of the deposited data

How the results depend on the processing

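Arms beyond both vehicles numbered 54 above and 158 below. The 54 include both miR-211 arms, which passed the minimum level only through the inhibitor libraries. Those above came to 90 with TMM, 102 with median-of-ratios and 5 with all-tag scaling, 139 with no minimum and 29 at 100 CPM, and 8, 6 and 2 at the smallest, middle and largest of the 3 minimum distances set for the nearest pair; leaving out a library gave 85 to 119. Those below came to 113 with TMM, 105 with median-of-ratios and 243 with all-tag scaling, 255 with no minimum, 88 at 100 CPM, and 64, 22 and 3 at those distances; leaving out a library gave 191 to 252. Separated arms above (18) came to 39, 42 and 2 and separated arms below (72) to 46, 43 and 132 under the TMM, median-of-ratios and all-tag scalings, and to 39 to 56 above and 108 to 151 below without a library. The edgeR calls (0 higher and 0 lower) came to 2 higher with all-tag scaling, 2 higher and 5 lower with no minimum, and 9 lower at 100 CPM; DESeq2 called 1 higher and 0 lower. Leaving out a library gave 0 to 10 higher and 1 to 18 lower by edgeR, with 10 and 18 without BIO, 2 and 1 without CHIR99021, 1 and 8 without DMSO and 0 and 1 without ddH2O; the lone library of a pair is then assumed to vary like the other group. Without BIO, the Dlk1-Dio3 median was -0.86 over 78 arms, beside -0.205 for all arms. The log2 difference of miR-122-5p was then 5.50.

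Among separated arms and lists whose sums did not overlap, directions reversed as follows. With all-tag scaling the miR-290-295 median was -0.20 and the blood cell median -0.33, and the log2 differences were -0.13 for miR-140-3p, -0.21 for miR-182-5p, -0.024 for miR-1981-5p, -0.088 for miR-23b-5p, -0.021 for miR-292a-5p, -0.18 for miR-293-3p, -0.091 for miR-295-3p and -0.16 for miR-363-5p. The miR-17-92 and paralogs median was 0.13 with TMM, 0.15 with median-of-ratios and -0.19 to 0.012 without a library, the highest without ddH2O. The miR-23/27/24 median was 0.16 with TMM, 0.18 with median-of-ratios, 0.061 at 100 CPM, 0.10 with tags of 20 to 25 bases and -0.059 to 0.055 without a library, the highest without ddH2O. The blood cell median was -0.003 with no minimum, -0.12 with untemplated ends and -0.006 without CHIR99021. MiR-27a-3p/miR-27b-3p came to 0.20 with tags of 20 to 25 bases and miR-3473b-3p/miR-3473e-5p to -0.052 with the most abundant tag alone. Medians of lists whose sums overlapped changed sign as well. The neural median (-0.04) was 0.12 with TMM, 0.15 with median-of-ratios, 0.016 with tags of 20 to 25 bases and 0.09 without CHIR99021. The let-7 median (0.04) was -0.30 with all-tag scaling, -0.18 without BIO and -0.016 without ddH2O. The Hox cluster median (0.22) was -0.10 with all-tag scaling and -0.22 with the most abundant tag alone, and the Drosha-independent median (0.27) was -0.15 with all-tag scaling and -0.021 with no minimum. The miR-183, miR-96 and miR-182 median (0.014) was -0.38 with all-tag scaling, -0.17 at 100 CPM, -0.024 with untemplated ends, -0.19 with tags of 20 to 25 bases and -0.10 without CHIR99021. The miR-200 median (-0.28) was 0.10 without ddH2O, and at 100 CPM the beta-catenin/TCF median (0.39) was -0.17 over 6 arms and the endoderm and liver median (-0.42) 2.10 over 2 arms. The cause was not tested. Among the named arms, 1243 recomputed values moved by less than the spread, 10 values of separated arms reversed, and the rest moved by more than the spread, some of them toward 0 or across it. MiR-295-5p came to 0.014, let-7a-5p to -0.30 and let-7f-5p to -0.18 with all-tag scaling, and let-7c-5p to 0.046 with TMM; miR-103-3p, at 0.059 with TMM, changed sign within the spread. The Dlk1-Dio3 median stayed between -0.51 (without CHIR99021) and -1.04 (all-tag scaling). No paired analysis was possible because each treatment has 1 library and the numbers within a pair name compounds or vehicles only. With 1 library per treatment, variation between cultures is in no interval, and arms near the minimum of 10 CPM rest on few counts.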

Other observations

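As means of a library, readouts of how the arms are cut and tailed differed little, while per arm the untemplated share leaned upward. The choice of libraries did not use these readouts. The mean length of microRNA tags was 22.3 and 22.1 bases in BIO and CHIR99021, against 22.1 and 22.1 bases in DMSO and ddH2O. Tags carrying untemplated 3' bases made up 11.9% and 12.6% in BIO and CHIR99021, against 10.8% and 12.3% in DMSO and ddH2O. Per arm, over 240 arms at 100 CPM or more, the untemplated share was above both vehicles in both inhibitor libraries for 78 arms and below for 28, and the mean length was above for 43 and below for 21. No test was made of these counts. The levels in this report count exact matches and leave out tags with untemplated 3' bases. With such tags counted, 69 of 78 compared Dlk1-Dio3 arms were below both vehicles and 0 above. The median of the region was then -0.63, beside -0.18 for all arms.

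Other seed families lay below both vehicles as sums, a direction far more frequent among all seed families than above both. The CAGUGCA seed of the miR-148/152 family had 1391 and 1372 CPM in BIO and CHIR99021, against 1665 and 2603 CPM in DMSO and ddH2O. The GUAAACA seed of the miR-30 family had 4761 and 5382 CPM in BIO and CHIR99021, against 5776 and 6134 CPM in DMSO and ddH2O, and 3 of its 5 arms were below both vehicles (background 34.7%). The UGACCUA seed of miR-192-5p and miR-215-5p had 4693 and 4132 CPM in BIO and CHIR99021, against 5102 and 5952 CPM in DMSO and ddH2O.

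The remaining lists lay near the background or held few compared arms; the backgrounds were 34.7% below and 11.9% above. Of the fibroblast and mesenchyme list, 2 of 5 compared arms were below both vehicles, miR-199a-3p/miR-199b-3p and miR-143-3p, and 0 above. Of the endoderm and liver list 4 of 5 were below and 0 above, and the fifth was miR-122-5p. The list of microRNAs reported to target Nanog, Oct4 or Sox2 had 2 of 6 arms below, 0 above and a median log2 difference of -0.47. Without ddH2O that median was -0.21, beside -0.10 for all arms, with 3 of 6 arms below and 0 above. The miR-15/16 list had 4 of 11 below and 1 above, miR-200 had 2 of 5 below and 1 above, and miR-23/27/24 had 2 of 7 below and 1 above. The Hox cluster list had 1 of 4 above, miR-196a-5p, with 739 and 693 CPM in BIO and CHIR99021 against 390 and 638 CPM in DMSO and ddH2O, and 0 below. The Drosha-independent list had 1 of 6 below and 0 above.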
